A study of Mus musculus with 18 samples.

Results

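The S100 calcium-binding proteins are described here through 10 transcripts: S100g, S100a1, S100a4, S100a6, S100a8, S100a9, S100a10, S100a11, S100a13 and S100a14. They are 10 of 19938 genes measured with a probe set that carries 1 gene symbol. A transcript was taken when the platform annotation gave a probe set its symbol alone. S100a11 had 2 such probe sets, and its probe set was chosen by the higher mean level over all 18 arrays. The 10 were selected on results of these same arrays, the time and genotype differences included, so their counts below describe a chosen set.

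RNA came from cells labelled as terminal bronchiolar epithelium of mouse lung, the lining of the smallest conducting airways. All 18 samples came from mice on mixed FVB/N and C57BL/6 strains and were labelled as having undergone naphthalene injury, the 0 hr samples included. Naphthalene is activated by cytochrome P450 enzymes of club cells, the secretory cells of these airways, and kills them, after which the epithelium is rebuilt. Control mice and mice labelled Cebpa d/d were sampled at 0, 3 and 72 hr, with 3 arrays in each of the 6 groups. Cebpa encodes C/EBP alpha, a transcription factor of maturing lung epithelium, and the study asks how its loss bears on recovery of the bronchiolar epithelium. The labels name neither the promoter that drives the deletion nor the age of the mice, and they do not say whether replicates were separate animals. P-values therefore speak only to the scatter among these arrays, and that scatter could be technical.

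S100 proteins are small proteins that bind calcium through a pair of EF-hand loops and mostly work as dimers. Inside cells they bind partners such as annexins and cytoskeletal proteins when calcium rises, and several are released from damaged or activated cells and act on receptors such as Ager and Tlr4. S100a8 and S100a9 form the heterodimer calprotectin, which is abundant in neutrophils, while S100g, also called calbindin-D9k, buffers calcium in epithelia that transport it.

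The genes themselves are clustered, with 15 of the 18 S100 genes in the RefSeq annotation (GRCm38.p6) on chromosome 3. That group takes in 9 of the 10 transcripts, and S100g lies apart on chromosome X. RefSeq start-site windows were matched for 8 of the 10, not for S100a10 and S100a14. The 250 bases upstream of the start are printed for 6 of the 8, because the factor deleted in these mice is itself a DNA-binding protein: the 3 that held a match to a pattern below (S100g, S100a9 and S100a11), S100a8 as the partner of S100a9, and S100a4 and S100a6, which rose late and held none. The windows are in GRCm38.p6 coordinates, 5′ to 3′ on the gene's strand: S100g at chrX:162964600-162964849 on the minus strand, S100a9 at chr3:90695722-90695971 on the minus strand, S100a8 at chr3:90668821-90669070 on the plus strand, S100a11 at chr3:93520246-93520495 on the plus strand, S100a4 at chr3:90603520-90603769 on the plus strand and S100a6 at chr3:90612644-90612893 on the plus strand. Capitals mark matches on either strand to TTGCNNAA (a C/EBP-like pattern), TGANTCA (AP-1) or TGACNNNGC (the core of the antioxidant response element).
S100g: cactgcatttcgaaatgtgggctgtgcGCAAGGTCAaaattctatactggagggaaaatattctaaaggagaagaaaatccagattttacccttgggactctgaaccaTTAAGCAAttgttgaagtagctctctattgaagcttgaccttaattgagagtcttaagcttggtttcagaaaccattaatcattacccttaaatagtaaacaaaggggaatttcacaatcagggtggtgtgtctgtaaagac
S100a9: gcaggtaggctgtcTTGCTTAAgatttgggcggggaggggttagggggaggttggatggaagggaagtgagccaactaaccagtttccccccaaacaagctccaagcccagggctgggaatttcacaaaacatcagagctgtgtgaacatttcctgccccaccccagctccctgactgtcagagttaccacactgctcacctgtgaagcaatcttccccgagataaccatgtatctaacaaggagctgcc
S100a8: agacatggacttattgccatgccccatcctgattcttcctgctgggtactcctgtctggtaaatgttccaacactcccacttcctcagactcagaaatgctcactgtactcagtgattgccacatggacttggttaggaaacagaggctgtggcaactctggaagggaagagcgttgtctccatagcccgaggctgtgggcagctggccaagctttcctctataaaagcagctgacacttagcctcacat
S100a11: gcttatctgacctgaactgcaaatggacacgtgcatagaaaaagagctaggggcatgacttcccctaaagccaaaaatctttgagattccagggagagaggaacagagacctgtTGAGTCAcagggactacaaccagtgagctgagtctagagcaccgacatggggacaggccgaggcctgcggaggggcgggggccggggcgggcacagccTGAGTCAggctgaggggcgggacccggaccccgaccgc
S100a4: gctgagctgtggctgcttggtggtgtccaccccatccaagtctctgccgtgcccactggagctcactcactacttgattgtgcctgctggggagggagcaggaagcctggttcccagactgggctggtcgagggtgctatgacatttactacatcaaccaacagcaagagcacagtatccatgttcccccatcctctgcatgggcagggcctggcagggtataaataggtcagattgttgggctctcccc
S100a6: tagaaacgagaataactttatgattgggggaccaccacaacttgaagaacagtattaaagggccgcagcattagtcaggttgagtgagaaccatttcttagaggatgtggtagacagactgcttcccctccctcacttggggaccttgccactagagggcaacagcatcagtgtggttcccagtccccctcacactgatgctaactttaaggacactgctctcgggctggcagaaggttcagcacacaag

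The C/EBP-like pattern was found in 2 of the 8 windows, S100g and S100a9, against 9.56% of 32851 windows of the same length in the RefSeq table. It stood as TTAAGCAA, read on the opposite strand, 142 to 135 bases before the S100g start, and as TTGCTTAA 236 to 229 bases before that of S100a9. The AP-1 pattern was found in 1 of the 8, S100a11, which held it at 136 to 130 and again at 38 to 32 bases before the start, against 6.75% of all windows. The antioxidant pattern was in 1 of the 8, S100g, as GCAAGGTCA at 223 to 215 bases before the start, against 10.2% of all windows. S100a1 and S100a13 start head to head on opposite strands, so that the same 104 bases lie upstream of both (chr3:90514331-90514434, plus strand), with no match to the 3 patterns.
S100a1 and S100a13: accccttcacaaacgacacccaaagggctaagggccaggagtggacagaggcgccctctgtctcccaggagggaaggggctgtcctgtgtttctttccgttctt
A match is a stretch of letters and not a measured binding site.

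Levels are log2 values made with RMA, so that a difference of 1 is a doubling. Levels of different transcripts are not set against each other here, since probes differ. A transcript is said to have risen, fallen or passed when limma's adjusted p (Benjamini-Hochberg, over all 19938 genes) was under 0.05, and errors are standard errors (SE) unless named. The deletion was visible in Cebpa itself, with 1 exception. The array labelled control 0 hr replicate 1 read 7.89 for Cebpa, within the 7.82 to 9.07 of the Cebpa d/d arrays, whereas the other 8 control arrays read 9.69 to 10.52. The S100g comparisons with control at 0 hr, and the counts of transcripts without overlap, are therefore given with and without it. Other comparisons that use control at 0 hr, and the mean over the 3 times, include it unless said otherwise. The array Cebpa d/d 72 hr replicate 1 also stood apart: all 10 S100 transcripts were lower on it than on the mean of the other replicates of its group, by a median of 0.82 log2 units. Its club cell markers had the highest mean level of the 6 arrays at 72 hr (10.82 against 9.97 to 10.22) and its macrophage and monocyte markers the lowest (7.59 against 8.07 to 8.63). Xist and Eif2s3y marked all 6 arrays at 72 hr as female, but 1 of 3 in each group at 0 and 3 hr. Markers of the labelled cells and of their neighbours were both measured: mean levels on an array were 9.97 to 11.06 for club cells, 8.47 to 9.74 for ciliated cells, 9.59 to 10.59 for alveolar type 2 cells and 9.89 to 10.78 for smooth muscle. The median of all gene means was 6.84. In such bulk RNA, fewer cells of a type and less RNA per cell cannot be told apart.

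Several S100 transcripts rose between 0 and 72 hr after naphthalene; the changes of the rest did not pass. In control mice, 6 of the 10 rose and none fell, against 4.95% of all genes that rose in this comparison: S100g, S100a1, S100a4, S100a6, S100a13 and S100a14. For all 10, each of the 3 arrays at 72 hr was above each of the 3 at 0 hr, a separation that 13.1% of all genes showed in that direction. The median change of the 10 was 1.24 log2 units, beside -0.02 over all genes. Among Cebpa d/d mice, 2 of the 10 rose between 0 and 72 hr (S100a6 and S100a11) against 3.39% of all genes, 5 of the 10 had no overlap between the groups of arrays against 12.2%, and the median change was 0.50 log2 units, beside -0.02. Without the array Cebpa d/d 72 hr replicate 1, 4 of the 10 rose in these mice, with S100a4 and S100a14 added. Of the 19938 genes, 1272 passed in either direction in that fit. With both arrays that stand apart left out, 9 of the 10 were without overlap in these mice against 19.1% of all genes, with S100g the exception, and all 10 in control mice against 20.0%. All arrays at 72 hr were female, and with sex as a term 4 of the 10 rose in control mice and 1 in Cebpa d/d mice. Of all genes, 790 and 553 passed in either direction in those comparisons. No S100 transcript passed the test of a difference in this time change between genotypes, in which 0.0953% of all genes passed. Cardiac muscle markers had array means of 9.66 to 10.65 at 0 hr and 7.18 to 7.46 at 72 hr in Cebpa d/d mice. In control mice these were 7.17 to 8.72 and 7.19 to 7.51. Over the 18 arrays the cardiac mean correlated with S100a11 at r = -0.74 and with S100a6 at -0.63. With each group's mean taken off, the values were -0.20 and 0.14. The part of cardiac RNA in these changes was not tested.

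**Figure D1:**
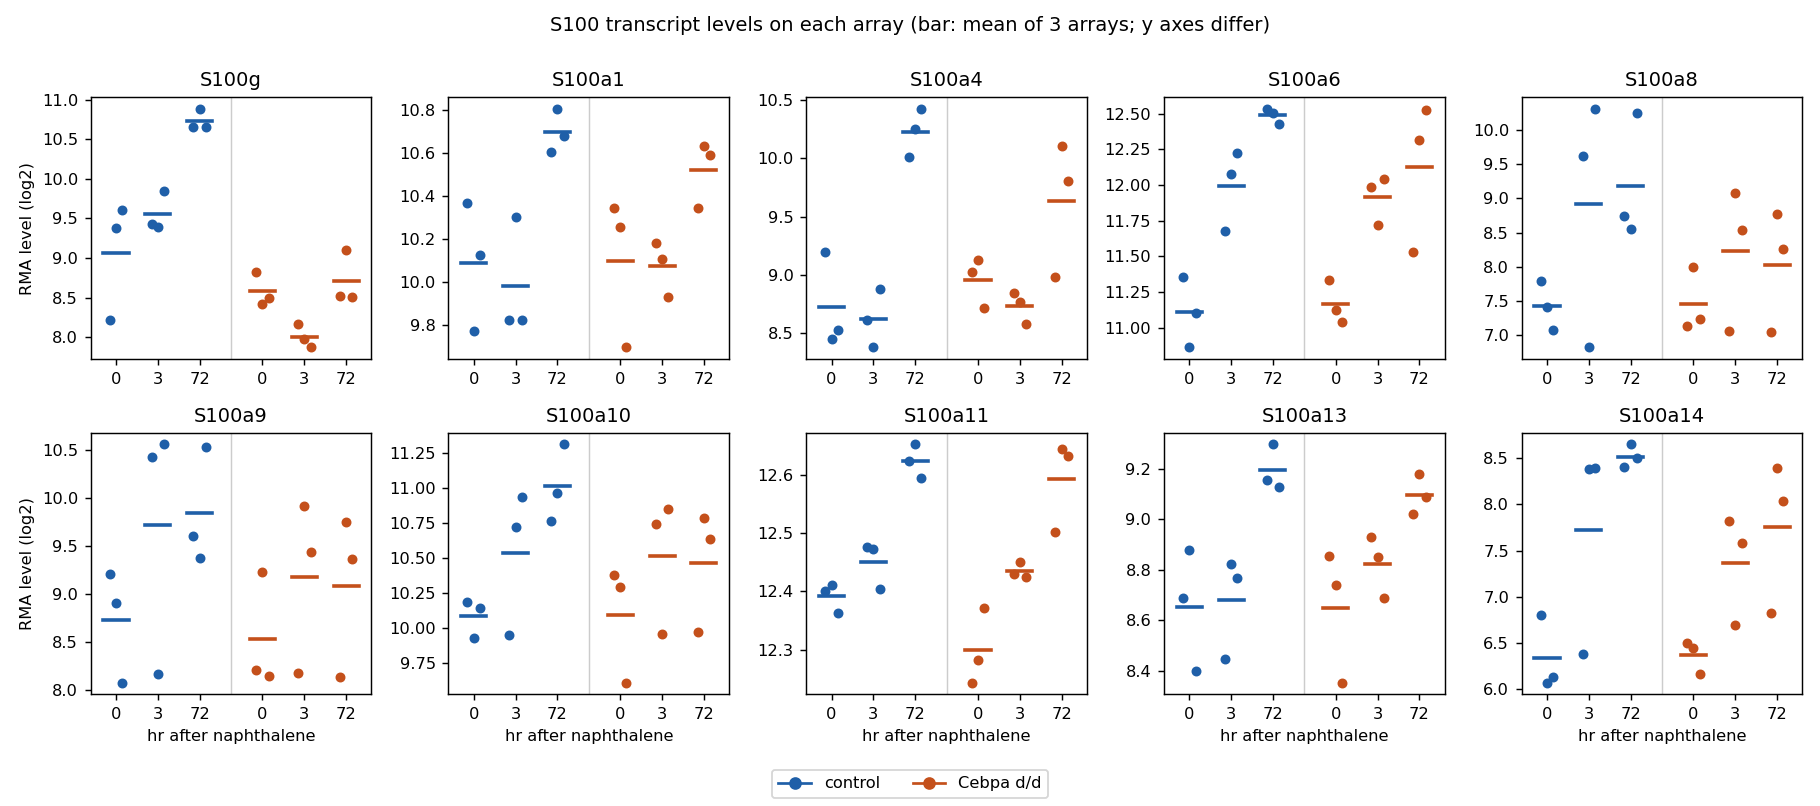
RMA level (log2) of each S100 transcript on each of 18 arrays, by hours after naphthalene, in control mice (blue) and Cebpa d/d mice (orange); points are arrays, bars are means of 3, and the y axes differ between panels. In control mice all 10 transcripts have their 3 arrays at 72 hr above their 3 arrays at 0 hr.

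**Figure D2:**
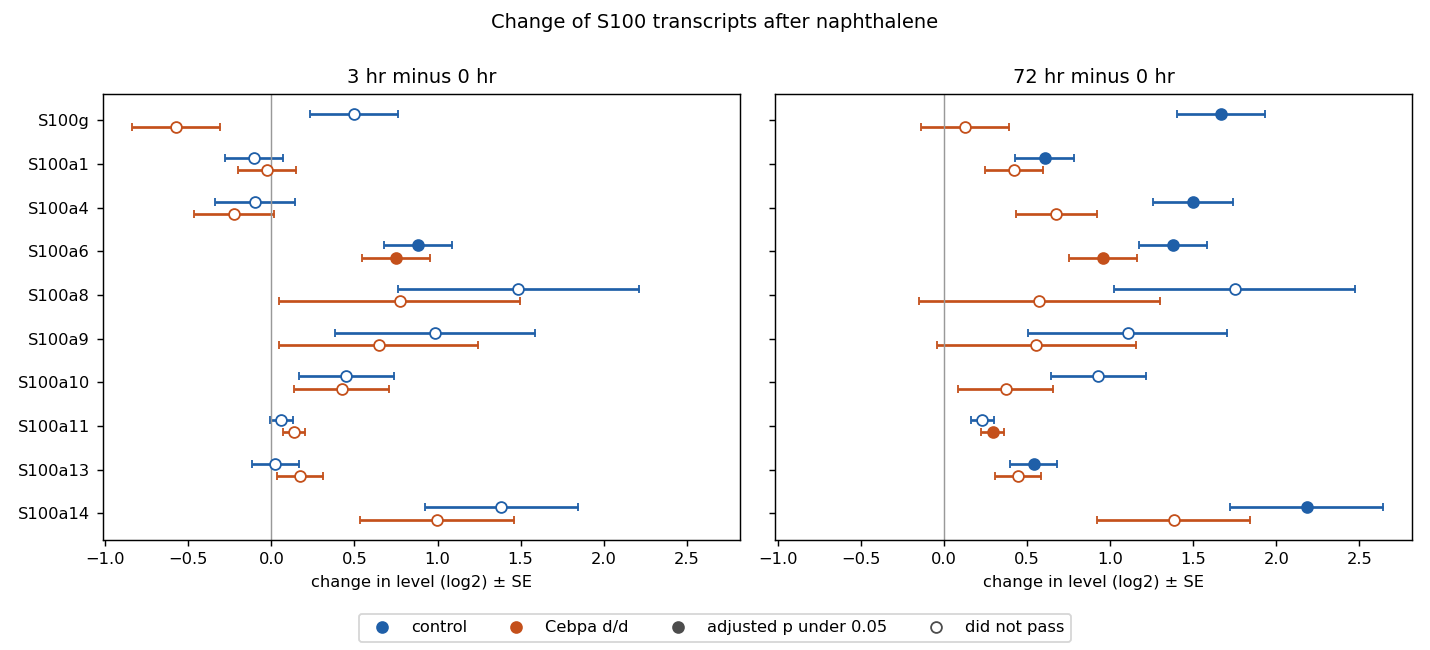
Change in level (log2) of each S100 transcript from 0 hr to 3 hr (left) and from 0 hr to 72 hr (right), in control mice (blue) and Cebpa d/d mice (orange); points are limma estimates, bars are SE, and filled points have an adjusted p under 0.05. At 72 hr in control mice 6 transcripts are filled, from S100a13 (0.54) to S100a14 (2.18).

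S100g, the calcium buffer of transporting epithelia, was the S100 transcript that differed between genotypes. In control mice its level was 8.22, 9.38 and 9.60 at 0 hr, 9.43, 9.40 and 9.85 at 3 hr, and 10.65, 10.88 and 10.66 at 72 hr. For Cebpa d/d mice the arrays gave 8.83, 8.42 and 8.50 at 0 hr, 8.17, 7.97 and 7.87 at 3 hr, and 8.52, 9.11 and 8.51 at 72 hr. The control arrays were above the Cebpa d/d arrays with no overlap at 3 and at 72 hr, and at 3 hr it was the 1 of the 10 to be lower in this way, against 6.05% of all genes. At 0 hr the groups overlapped through the single low array labelled control 0 hr replicate 1, on which Cebpa was low too. The mean levels ran, from high to low, control 72 hr, control 3 hr, control 0 hr, Cebpa d/d 72 hr, Cebpa d/d 0 hr and Cebpa d/d 3 hr.

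At 72 hr S100g was 4.06-fold lower in Cebpa d/d mice (log2 difference -2.02 ± 0.26, limma adjusted p = 0.00262), 1 of the 10 S100 transcripts to pass against 0.0602% of all genes passing as lower. At that time all 6 arrays were female. As a mean over the 3 times it was 2.55-fold lower (-1.35 ± 0.15, adjusted p = 0.00114) and ranked 2 of all genes by p, again as 1 of the 10 against 0.171% lower. At 3 hr, where no S100 transcript passed against 0.015% of all genes, S100g had a difference of -1.55 ± 0.26 with an adjusted p of 0.103 and rank 4 by p. Leaving out that array, which enters that fit through the shared spread, gave an adjusted p of 0.000556. Leaving out control 0 hr replicate 3 gave 0.038, and without each of the other 16 arrays in turn it did not pass, with adjusted p up to 0.546. At 0 hr no S100 transcript passed against 0.336% of all genes. The difference of S100g was -0.48 ± 0.26 there (adjusted p = 0.658), and -0.91 (adjusted p = 0.0316) without the array that goes against its label. It was -0.21 (adjusted p = 0.995) without control 0 hr replicate 3, and passed in no other omission of a single array.

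Over time S100g rose in control mice, by 1.67 ± 0.26 from 0 to 72 hr (3.17-fold, adjusted p = 0.00142) and by 1.17 ± 0.26 from 3 to 72 hr (adjusted p = 0.006). With the array that goes against its label left out, the first of these changes was 1.24 and again passed. The change from 0 to 72 hr in Cebpa d/d mice was 0.13 ± 0.26 (adjusted p = 0.866), and its sign turned without Cebpa d/d 72 hr replicate 2 (-0.07). The difference between these changes was -1.54 ± 0.37, with a 95% interval of -2.33 to -0.75 and an adjusted p of 0.254, and without both arrays that stand apart it was -1.02 (adjusted p = 0.399). It did not pass. S100g is on the X chromosome and arrays at 72 hr were all female. With sex as a term in the fit the control change was 1.52 (adjusted p = 0.0105) and the 72 hr difference between genotypes passed at 0.00413. Since both genotypes were all female at 72 hr, that term could not change the size of the latter difference, only its spread.

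**Figure D3:**
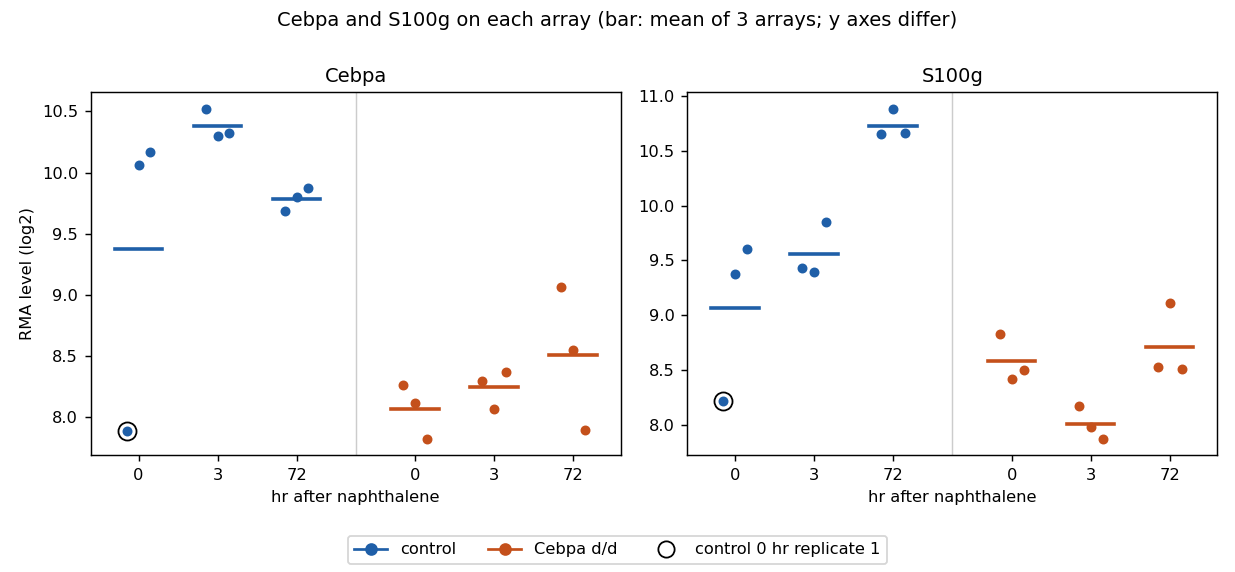
RMA level (log2) of Cebpa (left) and S100g (right) on each array, by hours after naphthalene, in control mice (blue) and Cebpa d/d mice (orange); points are arrays, bars are means of 3, and the circle marks the array labelled control 0 hr replicate 1. That array reads 7.89 for Cebpa and 8.22 for S100g, lower than the other 8 control arrays in both panels.

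The genes whose levels followed S100g most closely over the 18 arrays were Fabp5 (Pearson r = 0.90), a fatty acid binding protein, the lysozymes Lyz2 (0.90) and Lyz1 (0.88), Bex2 (0.87) and Phex (0.86), a membrane endopeptidase. These coefficients describe arrays that share genotype and time, and genes chosen for the likeness. Lyz2, which is made by alveolar type 2 cells and macrophages, was 1.29 ± 0.19 lower in Cebpa d/d mice as a mean over the 3 times (adjusted p = 0.00541). At 72 hr it differed by -1.40 ± 0.32 (adjusted p = 0.203), and the arrays of the genotypes did not overlap. Bex2 and Phex were lower at 72 hr, by 1.68 ± 0.23 (adjusted p = 0.00412) and 1.12 ± 0.19 (adjusted p = 0.0301). Alveolar type 2 markers stood beside S100g at 72 hr: the mean of the 14 was 10.16 to 10.59 on control arrays and 9.68 to 10.15 on Cebpa d/d arrays, and 0 of the 14 passed. At 3 hr, where S100g did not overlap either, the ranges of those markers did overlap, at 9.59 to 9.89 and 9.73 to 9.84. Other lists stood apart at 72 hr too. Macrophage and monocyte markers had means of 8.24 to 8.63 on control arrays and 7.59 to 8.20 on Cebpa d/d arrays. For ciliated markers these were 9.54 to 9.74 and 9.37 to 9.43, and for neutrophil markers 6.16 to 6.40 and 5.78 to 6.09. Lyz2, picked above for its likeness to S100g, is on both the alveolar type 2 and the macrophage and monocyte lists. At 72 hr its own level was 11.84 to 12.32 on control arrays and 10.38 to 10.99 on Cebpa d/d arrays. The separation of those list means, and their correlations with S100g, therefore include the part of Lyz2, and neither was computed without it. S100g correlated with alveolar type 2, macrophage and neutrophil means at 0.45, 0.60 and 0.47. With each group's mean taken off, the values were -0.27, 0.10 and -0.02. The part of these cell types in the result was not tested.

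Other genes of calcium transport and vitamin D signalling did not pass between genotypes, and 1 of them changed over time. Of 11 measured, 0 passed between genotypes at any time, and their median difference at 72 hr was -0.00388, beside 0.02 over all genes. Trpv6, the calcium channel of absorbing epithelia, differed by -0.20 ± 0.13 at 72 hr and Vdr, the vitamin D receptor, by -0.20 ± 0.14. Slc8a1, a sodium-calcium exchanger with high expression in heart, rose by 0.58 ± 0.12 from 3 to 72 hr in control mice (adjusted p = 0.0037) and fell by 0.57 from 0 to 3 hr in Cebpa d/d mice (SE 0.12, adjusted p = 0.0114). In the latter comparison all 15 cardiac muscle markers fell, with array means between 9.66 and 10.65 before and between 7.53 and 8.06 after, and their part in the change of Slc8a1 was not tested.

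S100a6, S100a10 and S100a14 are proteins of epithelial and other cells, the first 2 of which are known to bind annexins. S100a6, calcyclin, was 11.36, 10.86 and 11.10 at 0 hr in control mice, 11.68, 12.07 and 12.22 at 3 hr, and 12.53, 12.51 and 12.42 at 72 hr. The Cebpa d/d arrays gave 11.33, 11.12 and 11.04, then 11.99, 11.72 and 12.04, then 11.53, 12.32 and 12.52. In each genotype every array at 3 and at 72 hr was above every array at 0 hr. S100a6 was the S100 transcript that had risen by 3 hr, and it did so in both genotypes: by 0.88 ± 0.20 in control mice (adjusted p = 0.0269) and by 0.75 ± 0.20 in Cebpa d/d mice (adjusted p = 0.0472). That is 1 of the 10 in each case, against 1.88% and 2.66% of all genes that rose.

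From 0 to 72 hr S100a6 rose 2.60-fold in control mice (1.38 ± 0.20, adjusted p = 0.000984) and 1.94-fold in Cebpa d/d mice (0.96 ± 0.20, adjusted p = 0.0109). The change in Cebpa d/d mice was 1.26 without replicate 1 of the 72 hr group, the lowest of its 3 arrays. It did not pass without replicate 2 (adjusted p = 0.0689) or replicate 3 (0.0697) of that group, nor with only the 2 groups in the fit. The 3 hr call in control mice was lost without control 0 hr replicate 2 (adjusted p = 0.0666), control 0 hr replicate 3 (0.0754), control 3 hr replicate 2 (0.0797) or control 3 hr replicate 3 (0.126). The 3 hr call in Cebpa d/d mice was lost with 11 of the 18 arrays left out in turn, with adjusted p values up to 0.181, and with the replicate number as a block (0.0654).

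S100a14, an epithelial S100 protein, was 6.80, 6.07 and 6.13 at 0 hr in control mice, 6.38, 8.38 and 8.40 at 3 hr, and 8.40, 8.65 and 8.50 at 72 hr. Cebpa d/d levels were 6.50, 6.45 and 6.16, then 7.82, 6.70 and 7.58, then 6.82, 8.39 and 8.04. The 0 and 72 hr arrays did not overlap in either genotype, and 1 array in each later Cebpa d/d group and in the control 3 hr group lay far below its replicates. S100a14 rose 4.55-fold from 0 to 72 hr in control mice (2.18 ± 0.46, adjusted p = 0.00874). The change from 0 to 3 hr in control mice was 1.38 ± 0.46 (adjusted p = 0.104) and was 2.06 (adjusted p = 0.00413) without control 3 hr replicate 1. The change from 0 to 72 hr in Cebpa d/d mice was 1.38 ± 0.46 (adjusted p = 0.104) and was 1.85 (adjusted p = 0.024) without Cebpa d/d 72 hr replicate 1. It also passed when another single array was left out (adjusted p = 0.0219), and did not pass in 16 of the 18 omissions. At 72 hr every Cebpa d/d array was below every control array, as also for S100g, so that 2 of the 10 were lower without overlap against 6.19% of all genes. For S100a14 the gap at the boundary was small and its difference of -0.77 ± 0.46 did not pass (adjusted p = 0.831).

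S100a10, the partner of annexin A2 in a membrane complex, was 10.19, 9.93 and 10.14 at 0 hr in control mice, 9.95, 10.73 and 10.94 at 3 hr, and 10.77, 10.97 and 11.31 at 72 hr. Its control arrays at 0 and 72 hr did not overlap, with a difference of 0.93 ± 0.29 (adjusted p = 0.0609). Its levels in Cebpa d/d mice were 10.38, 10.30 and 9.61, then 10.74, 9.96 and 10.85, then 9.98, 10.79 and 10.64, and overlapped at all times.

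Of the 3 annexins on the partner list, Anxa1 and Anxa2 changed and Anxa11 passed in no comparison, with a difference of 0.11 ± 0.15 from 0 to 72 hr in control mice (adjusted p = 0.73). Anxa1, a calcium-dependent membrane binder, was the gene closest to S100a6 over the 18 arrays (r = 0.96), followed by the galectin Lgals3 (0.95), and Anxa2 was closest to S100a14 (r = 0.94). Anxa1 rose from 0 to 3 hr by 1.01 ± 0.22 in control mice (adjusted p = 0.0219) and by 1.24 ± 0.22 in Cebpa d/d mice (adjusted p = 0.00358). From 0 to 72 hr it rose by 1.50 and 1.33 (adjusted p = 0.000984 and 0.00201). Anxa2 rose from 0 to 72 hr by 0.72 ± 0.17 in control mice (adjusted p = 0.0191) and by 0.67 ± 0.17 in Cebpa d/d mice (adjusted p = 0.0333). Within groups, after each group's mean was taken off, S100a14 correlated with S100a10 at r = 0.85 and with S100a6 at 0.83, so that the same arrays tended to be low for these 3 transcripts. A mean of 8 epithelial markers also correlated with S100a6 and S100a14 (both r = 0.87 over the 18 arrays, and 0.64 and 0.86 within groups). For S100a10 these values were 0.72 and 0.68. Macrophage and monocyte markers correlated with S100a10 at 0.72 over the arrays and at 0.83 within groups. With S100a6 and S100a14 they correlated at 0.63 and 0.65 over the arrays, and at 0.72 and 0.65 within groups. Alveolar type 1 markers gave -0.24 and -0.15 over the arrays for S100a6 and S100a14, and 0.74 and 0.64 within groups. On control arrays the epithelial mean lay between 9.66 and 9.85 at 0 hr and between 10.26 and 10.56 at 72 hr, where 4 of the 8 rose and 0 fell. The part of these markers in the result was not tested.

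**Figure D4:**
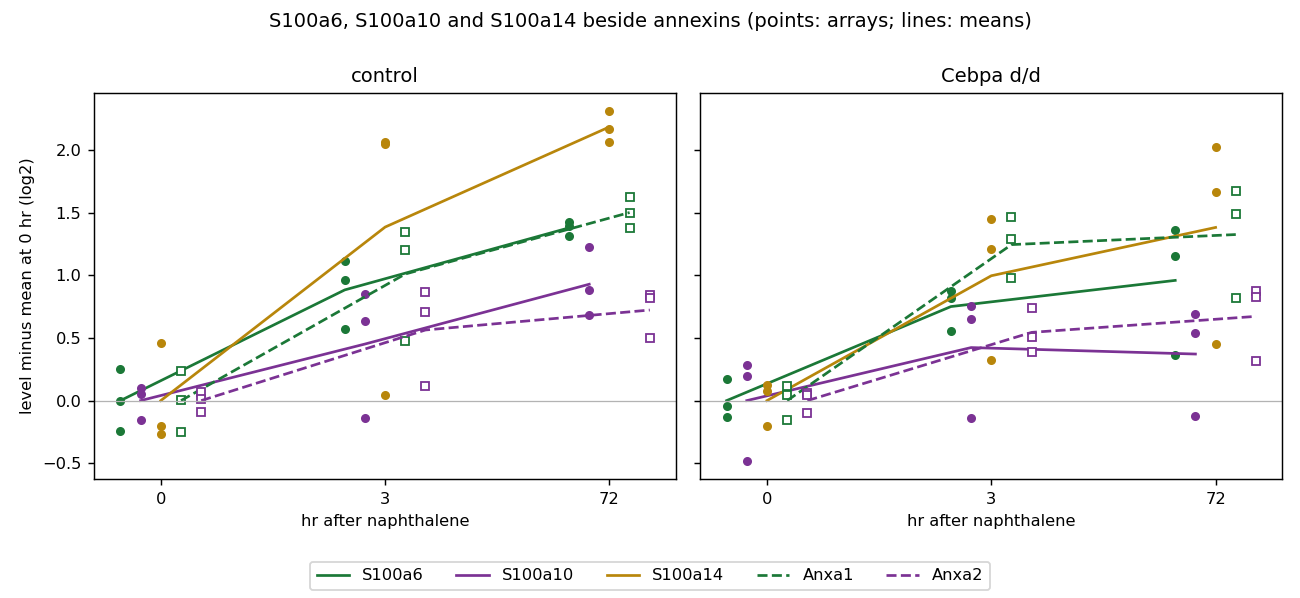
Level (log2) of S100a6, S100a10, S100a14, Anxa1 and Anxa2 minus each gene's mean at 0 hr, in control mice (left) and Cebpa d/d mice (right), by hours after naphthalene; points are arrays (filled circles for S100 transcripts, open squares for annexins) and lines join means of 3. S100a6 and Anxa1 are above 0 at 3 hr on all arrays of both genotypes, and 1 Cebpa d/d array at 72 hr is low for all 5 genes.

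Of 16 receptors and partners of S100 proteins, 3 rose and 0 fell from 0 to 72 hr in control mice: Anxa1, Anxa2 and Sugt1, a co-chaperone bound by S100a6, which rose by 0.69 ± 0.15 (adjusted p = 0.00951). Of the same 16, 2 rose in Cebpa d/d mice (Anxa1 and Anxa2) and 1 fell, the scavenger receptor Cd36, which fell by 0.57 (SE 0.12, adjusted p = 0.00979). The signalling receptors of extracellular S100 proteins changed in neither genotype past the threshold: from 0 to 72 hr in control mice the difference was -0.25 ± 0.13 for Ager (adjusted p = 0.301) and 0.07 ± 0.15 for Tlr4 (adjusted p = 0.836). The median over the 16 was -0.12, beside -0.02 over all genes.

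S100a4, known from motile cells such as fibroblasts and macrophages, was higher at 72 hr and not at 3 hr. Its level in control mice was 9.20, 8.45 and 8.53 at 0 hr, 8.61, 8.38 and 8.88 at 3 hr, and 10.01, 10.25 and 10.42 at 72 hr. Levels in Cebpa d/d mice were 9.02, 9.13 and 8.72, then 8.84, 8.77 and 8.58, then 8.99, 10.11 and 9.81. All control arrays at 72 hr were above all earlier ones, and the single Cebpa d/d 72 hr array that stands apart lay among the 0 hr arrays of its genotype. S100a4 rose 2.83-fold from 0 to 72 hr in control mice (1.50 ± 0.24, adjusted p = 0.00158) and 3.03-fold from 3 to 72 hr (1.60 ± 0.24, adjusted p = 0.000335).

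In Cebpa d/d mice S100a4 rose by 0.90 ± 0.24 from 3 to 72 hr (adjusted p = 0.0285). The call was lost without any single array of the 3 hr group or without replicate 2 or 3 of the 72 hr group (adjusted p 0.057 to 0.157). It was also lost with sex as a term. Of the 9 settings other than single omissions, 7 kept it. The change of S100a4 from 0 to 72 hr was 0.68 ± 0.24 (adjusted p = 0.132), and it passed (adjusted p = 0.0081) without Cebpa d/d 72 hr replicate 1. The difference between genotypes in the change from 0 to 72 hr was -0.82 ± 0.34, with a 95% interval of -1.54 to -0.10, an unadjusted p of 0.0281, and no pass after adjustment.

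From 3 to 72 hr, 4 of the 10 S100 transcripts rose in control mice against 11.2% of all genes (S100g, S100a1, S100a4 and S100a13), and 7 of the 10 were higher without overlap against 17.1%. S100a4, as 1 of the 10, rose in Cebpa d/d mice against 4.88%, and there 5 of the 10 were higher without overlap against 15.3%. With sex in the fit, 2 remained in control mice (S100g and S100a4) and 0 in Cebpa d/d mice, where 2444 and 931 of all genes passed in either direction.

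Markers of several cell types moved beside S100a4, those of macrophages and monocytes most closely over the 18 arrays among the 8 lists compared. Over the 18 arrays their mean correlated with S100a4 at r = 0.92, and within groups at 0.71. On control arrays the mean of the 13 markers lay between 7.57 and 7.70 at 0 hr and between 8.24 and 8.63 at 72 hr, and 5 of the 13 rose and 0 fell. On Cebpa d/d arrays at 72 hr it was 7.59 on replicate 1, the array low for S100a4, and 8.07 and 8.20 on the others. C1qa, a complement gene of macrophages, was among the 5 genes most like S100a4 (r = 0.95), with Rap2a (0.96), Lgals1 (0.95), Kntc1 (0.95) and Mastl (0.95), the last 2 of which act in mitosis. Fibroblast markers also stood beside S100a4: their mean correlated with it at r = 0.81 over the 18 arrays and at 0.67 within groups. On control arrays the mean of the 10 fibroblast markers lay between 8.90 and 9.34 at 0 hr and between 9.35 and 9.56 at 72 hr, and 2 of the 10 rose and 0 fell. From 3 to 72 hr in control mice 8 of the 10 rose. Alveolar type 1 markers correlated with S100a4 at 0.41 over the arrays and at 0.77 within groups, and alveolar type 2 markers at 0.76 and 0.61. The part of these cell types in the level of S100a4 was not tested.

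S100a8 and S100a9, the subunits of calprotectin, varied more between arrays than between groups. S100a8 was 7.80, 7.41 and 7.08 at 0 hr in control mice, 9.62, 6.83 and 10.30 at 3 hr, and 8.74, 8.55 and 10.25 at 72 hr. On Cebpa d/d arrays it was 7.13, 7.99 and 7.24, then 7.07, 9.08 and 8.54, then 7.05, 8.76 and 8.27. Every group at 3 hr, and Cebpa d/d at 72 hr, held 1 array as low as the 0 hr arrays beside others above them. S100a9 gave the same picture: 9.21, 8.90 and 8.08, then 10.42, 8.17 and 10.55, then 9.60, 9.38 and 10.53 in control mice, and 8.21, 9.23 and 8.15, then 8.18, 9.92 and 9.43, then 8.13, 9.75 and 9.37 in Cebpa d/d mice.

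The arrays of control mice at 72 hr were above those at 0 hr for both subunits, but neither change passed: it was 1.75 ± 0.73 for S100a8 (adjusted p = 0.168) and 1.11 ± 0.60 for S100a9 (adjusted p = 0.315). At 3 hr the control change of S100a8 was 1.49 ± 0.73 (adjusted p = 0.254), and 2.53 (adjusted p = 0.0438) without control 3 hr replicate 2. The SD of S100a8 within the control 3 hr group was 1.84 log2 units, and over all 18 arrays S100a8 and S100a9 varied more than 99.7% and 99.3% of genes. The 2 transcripts, which lie next to each other on chromosome 3 in the S100 order, correlated at r = 0.97 over the 18 arrays and at 0.97 within groups, and each was the other's closest profile of all genes.

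The next profiles after them were neutrophil genes: Retnlg (r = 0.88), Mmp8 (0.86) and Cxcr2 (0.84) for S100a8, and Cxcr2 (0.88), Retnlg (0.83) and Mmp8 (0.80) for S100a9. The mean of 15 neutrophil markers, which include these 3, correlated with S100a8 at r = 0.83 and with S100a9 at 0.80, and at 0.83 and 0.80 within groups. On control arrays that mean lay between 5.86 and 6.14 at 0 hr, between 6.07 and 6.62 at 3 hr, and between 6.16 and 6.40 at 72 hr. The 9 Cebpa d/d arrays ran from 5.78 to 6.28. Of the 15, 1 rose from 0 to 3 hr in control mice and 0 from 0 to 72 hr. Ly6g and Csf3r, which mark the lineage, differed by 0.34 ± 0.13 and -0.00144 ± 0.165 between 0 and 72 hr in control mice (adjusted p = 0.134 and 0.997). How far neutrophils in the samples set the levels of S100a8 and S100a9 was not tested.

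**Figure D5:**
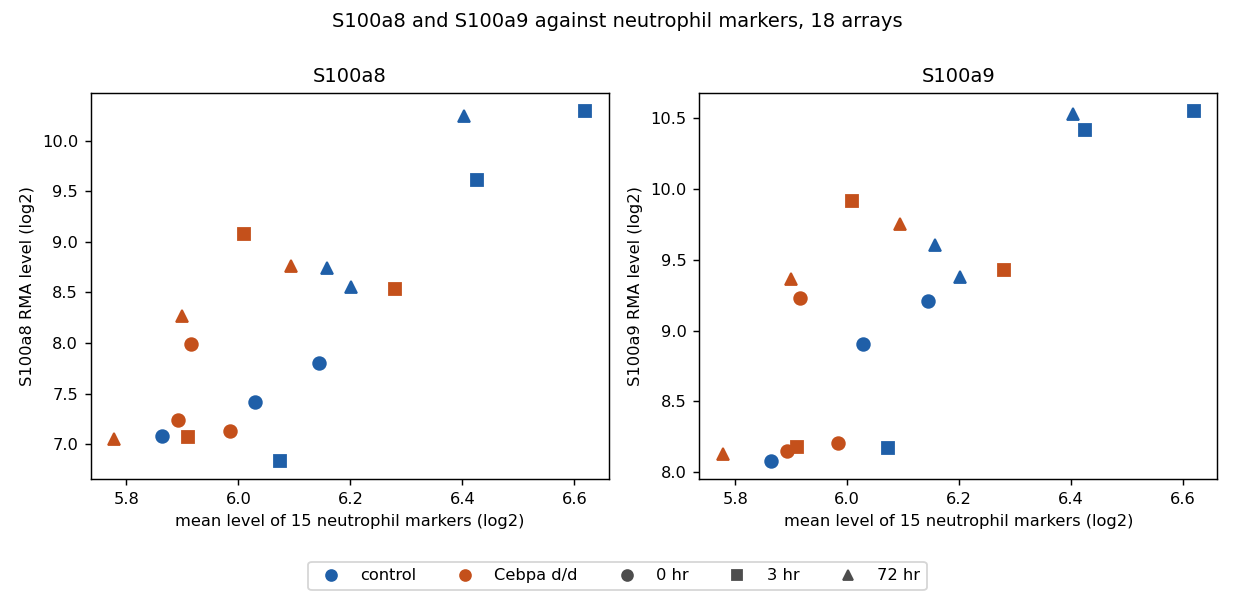
RMA level (log2) of S100a8 (left) and S100a9 (right) against the mean level (log2) of 15 neutrophil markers on each of 18 arrays; colour gives the genotype and shape the hours after naphthalene. The 3 arrays with the highest marker mean are control arrays at 3 and 72 hr, and they have the 3 highest levels of both transcripts (r = 0.83 and 0.80).

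S100a11, calgizzarin, had the smallest spread of the 10 and a small later rise. It was 12.40, 12.41 and 12.36 at 0 hr in control mice, 12.48, 12.47 and 12.40 at 3 hr, and 12.62, 12.65 and 12.59 at 72 hr. In Cebpa d/d mice it was 12.24, 12.28 and 12.37, then 12.43, 12.45 and 12.43, then 12.50, 12.65 and 12.63. In both genotypes the 72 hr arrays lay above all others. S100a11 rose from 0 to 72 hr in Cebpa d/d mice by 0.29 ± 0.07, which is 1.23-fold (adjusted p = 0.0188). The call was lost without Cebpa d/d 0 hr replicate 1 (0.0763) or 2 (0.0625) or Cebpa d/d 72 hr replicate 2 (0.107) or 3 (0.0895). It was also lost with sex as a term and with only the 2 groups in the fit (adjusted p up to 0.127). In control mice the change was 0.23 ± 0.07 with an adjusted p of 0.0519. The second probe set of S100a11, which correlated with the first at r = 0.98, gave 0.23 ± 0.06 and an adjusted p of 0.0439, taken over the 21789 probe sets with 1 symbol rather than over genes, for the same change, so that the 2 probe sets fell on opposite sides of the threshold.

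The profiles most like S100a11 were Calml4 (r = 0.95), Drc7, Ttc12, Saxo2 and Nme5 (all 0.93), of which Drc7, Ttc12, Saxo2 and Nme5 encode proteins of cilia and sperm tails. Ciliated cell markers moved beside it: 3 of 11 rose and 0 fell from 0 to 72 hr in control mice, and 7 of 11 rose and 0 fell in Cebpa d/d mice, where their mean on an array was at most 8.69 at 0 hr and at least 9.37 at 72 hr. Their part in the level of S100a11 was not tested.

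S100a1 and S100a13, the neighbours that share the stretch of sequence above, both rose late in control mice. S100a1, best known from heart muscle where it modulates calcium release, was 10.36, 9.77 and 10.13 at 0 hr, 9.82, 10.30 and 9.82 at 3 hr, and 10.60, 10.80 and 10.68 at 72 hr. S100a13, which takes part in the non-classical release of Fgf1 and Il1a, was 8.69, 8.88 and 8.40, then 8.44, 8.82 and 8.77, then 9.16, 9.30 and 9.13. For both, the control arrays at 72 hr were above all earlier ones. From 0 to 72 hr S100a1 rose by 0.61 ± 0.18 (adjusted p = 0.047) and S100a13 by 0.54 ± 0.14 (adjusted p = 0.0278). Neither passed with sex as a term (adjusted p = 0.207 and 0.0952), and with 1 array left out in turn the call was lost for 11 of the 18 arrays for S100a1 (up to 0.196) and for 4 of the 18 for S100a13 (up to 0.125).

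In Cebpa d/d mice S100a1 was 10.34, 10.26 and 9.70, then 10.18, 10.11 and 9.93, then 10.34, 10.63 and 10.59, and S100a13 was 8.86, 8.74 and 8.35, then 8.93, 8.85 and 8.69, then 9.02, 9.18 and 9.09. The 72 hr arrays were again the highest, for S100a1 by a narrow margin over 0 hr, with changes from 0 hr of 0.42 ± 0.18 and 0.45 ± 0.14 that did not pass (adjusted p = 0.209 and 0.0836). Cardiac muscle markers were higher on the Cebpa d/d arrays at 0 hr, where their mean was 9.66 to 10.65, than on control arrays at 0 hr (7.17 to 8.72). The genotype difference at 0 hr was 0.01 ± 0.18 for S100a1 (adjusted p = 0.993) and -0.0038 ± 0.14 for S100a13 (adjusted p = 0.998). Over the 18 arrays the cardiac mean correlated with S100a1 at r = -0.28 and with S100a13 at -0.30. Within groups these were 0.09 and 0.74. The macrophage and monocyte mean correlated with S100a1 at 0.77 and with S100a13 at 0.67 over the arrays, and at 0.36 and 0.22 within groups. The fibroblast mean correlated with S100a1 at 0.78 over the 18 arrays and at 0.67 within groups. The part of these markers in the levels of S100a1 and S100a13 was not tested.

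Outside the 10, 1 of the 6 other S100 genes on the list passed. S100b, known from glia and also made by some epithelial and immune cells, rose from 0 to 72 hr by 0.97 ± 0.16 in control mice (adjusted p = 0.00227) and by 0.60 ± 0.16 in Cebpa d/d mice (adjusted p = 0.0429). S100a3, S100a5, S100a7a, S100a16 and S100z passed in no time comparison, and the median change of the 6 from 0 to 72 hr in control mice was 0.20. Of 6 measured fused-type S100 genes, which encode large proteins of the cornified layer with an S100 domain at one end, 1 passed: Rptn fell by 1.75 from 0 to 72 hr in control mice (SE 0.36, adjusted p = 0.00768).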

How the data were processed

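Values were the deposited log2 levels of 18 Affymetrix Mouse Gene ST arrays. RMA, which corrects background, normalizes between arrays and summarises probes, made these log2 values, per the submitters' processing notes. Its version, the build and any filter: not given in the sources used here. Scanner files were not used, which leaves background and saturation unexamined. Precision is limited by the number of arrays.

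Of 35557 probe sets, 21789 carried 1 symbol, which gave 19938 genes, each by its highest-mean probe set. In R 4.3.3 with limma 3.58.1, a linear model with a mean for each of 6 groups was fitted over all arrays and genes without a replicate term, leaving 12 residual degrees of freedom plus 4.49 from moderation. It gave 13 contrasts, adjusted within each by Benjamini-Hochberg. The fit was tested on simulated data. Percentages of all genes beside a count use the same call.

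The 10 transcripts and all gene lists were chosen with earlier results of these data known. Named genes were the 10, Cebpa, members of the lists that passed (at most 4 a list) or are counted, markers beside a transcript and the 5 most similar profiles. Alternatives were a filter on low genes, the mean of probe sets, trended robust moderation, array weights, a replicate block, only the groups compared, median centring, sex as a term, and leaving out arrays.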

Additional observations from a re-analysis of the deposited data

How the results depend on the processing

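Each count of S100 transcripts that passed was recomputed under 8 alternatives, without each of the 18 arrays in turn and without both arrays that stand apart. No change that passed, in the full fit or under an alternative, turned in direction. The small S100g change from 0 to 72 hr in Cebpa d/d mice, which passed in none, did: 0.13 became -0.07 without Cebpa d/d 72 hr replicate 2 and -0.02 with sex as a term. Between genotypes the count was 1 at 72 hr and as a mean over times under every one of these. At 3 hr the count of 0 became 1 (S100g) with array weights, with only the 2 groups in the fit and without both arrays, and ran from 0 to 1 with single arrays left out. At 0 hr it became 1 without both arrays and ran from 0 to 1 with single arrays left out. From 0 to 3 hr in control mice the count of 1 became 0 with only the 2 groups in the fit and ran from 0 to 2 with single arrays left out. From 0 to 3 hr in Cebpa d/d mice the count of 1 became 0 with trended robust moderation, with the replicate block and with sex as a term, and ran from 0 to 1. From 0 to 72 hr in control mice the count of 6 became 8 without low genes (S100a10 and S100a11 added) and with array weights (the same additions), 7 with the mean of probe sets and with trended robust moderation (S100a11 added), 5 with the replicate block and with median centring (S100a1 lost) and 4 with sex as a term (S100a1 and S100a13 lost), and ran from 4 to 8. With only the 2 groups in the fit it was again 6, with S100a8 (adjusted p = 0.0439) and S100a10 in and S100a1 and S100a13 out. From 3 to 72 hr in control mice the count of 4 became 2 with sex as a term, 5 with trended robust moderation (S100a11 added) and 5 without both arrays, and ran from 3 to 5. From 0 to 72 hr in Cebpa d/d mice the count of 2 became 5 with array weights and 0 with only the 2 groups. It was 1 with sex as a term (S100a11 lost) and 4 without both arrays, and ran from 0 to 4. From 3 to 72 hr in Cebpa d/d mice the count of 1 became 4 with array weights, 2 with only the 2 groups, 0 with sex as a term and 3 without both arrays, and ran from 0 to 2. S100a4 kept that call in 7 of the 9 settings other than single omissions, so a count above 0 did not always include it. S100g kept its call at 72 hr between genotypes, with adjusted p values from 2.22e-05 to 0.0259. The number of all genes that passed, in either direction, moved with the setting too. Between genotypes at 3 hr it was 11 with array weights and 7 with only the 2 groups. For the change from 0 to 3 hr it was 55 in control mice with only the 2 groups. In Cebpa d/d mice that change gave 859 with trended robust moderation, 740 with the replicate block and 823 with sex as a term. From 0 to 72 hr in control mice it was 3133 with array weights, 1128 with only the 2 groups and 790 with sex as a term. With median centring it was 1325. In Cebpa d/d mice these 4 numbers were 1981, 737, 553 and 903 from 0 to 72 hr, and 3913, 1593, 931 and 1588 from 3 to 72 hr. Without low genes, 1361 passed from 0 to 72 hr in control mice, out of fewer genes tested, so that count of 8 has another base. For the same change 1430 passed with the mean of probe sets, 1362 with trended robust moderation and 1246 with the replicate block. From 3 to 72 hr in control mice 3909 passed with trended robust moderation and 2444 with sex as a term. Where a count moved, the cause was not tested. Same-numbered arrays of different groups shared little: 7 of 45 pairs of deviations correlated above 0.1, from -0.29 to 0.20, so the numbers were not taken as pairs. The replicate block lost the calls of S100a1 from 0 to 72 hr in control mice (limma adjusted p 0.0555, leaving 5) and of S100a6 from 0 to 3 hr in Cebpa d/d mice (0.0654), and changed no other call.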

Other observations

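S100a2, which is on none of the lists and was singled out after its values were seen, had mean levels of 7.02, 6.88 and 8.06 at 0, 3 and 72 hr in control mice and 7.02, 6.74 and 7.51 in Cebpa d/d mice. It rose from 0 to 72 hr by 1.04 ± 0.16 in control mice (limma adjusted p = 0.00158, here and below over the 21789 probe sets that carry 1 symbol rather than over genes). In Cebpa d/d mice the change was 0.50 ± 0.16 (adjusted p = 0.0942), and the rise from 3 to 72 hr was 0.77 ± 0.16 (adjusted p = 0.00822). S100a2 lies between S100a3 and S100a4 in the chromosome 3 order, and of those neighbours S100a4 rose in the same comparison and S100a3 did not pass.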
